A study of Bos taurus with 6 samples.

Results

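MYH1 and MYH2 encode the fast myosin heavy chains of type IIx and type IIa, and their transcript levels are described here in longissimus dorsi, a long back muscle, of 3 bulls and 3 steers. The members were chosen by Ensembl gene ID, ENSBTAG00000018204 for MYH1 and ENSBTAG00000007090 for MYH2, which is 2 of the 24616 gene IDs in each count file. The pairing of these IDs with the names came with the choice of the genes and could not be checked here, because the supplied RefSeq table holds no Ensembl ID and matched 0 of the 24616 IDs. All animals were Hanwoo, also called Korean cattle, with 1 poly(A) RNA-seq library each. The bulls (intact males) carried the animal numbers 20, 22 and 23 and were sampled at 746 days of age. The steers (castrated males) had the numbers 439, 456 and 458 and the ages 996, 950 and 930 days. The steers were thus all older than the bulls, the effects of castration and of age cannot be told apart, and no label says when the steers were castrated or how the animals were fed. The number of counts assigned to genes lay between 17027226 and 27490776 per library.

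A myosin heavy chain forms the motor head and the tail of the thick filament of the sarcomere. Adult limb and trunk muscle fibres are classed by the heavy chain they hold. MYH7 marks slow type I fibres, MYH2 marks fast type IIa fibres, which combine fast contraction with oxidative metabolism, and MYH1 marks type IIx fibres, which contract faster and rely more on glycolysis. Many fibres hold both fast chains at once, and fibres can shift between the types with use, innervation, hormones and nutrition. In the RefSeq table of the ARS-UCD2.0 cattle assembly, MYH1 and MYH2 are direct neighbours. Their cluster also holds MYH13, MYH8, MYH4 and MYH3, the other named skeletal muscle chains of that locus. The protein-coding gene LOC132343045 is listed between MYH4 and MYH1. The named myosin genes of this cluster are close in sequence. Reads that aligned to more than one place were kept in a summary line of each file and counted for no gene, so the level of each member covers only the reads that aligned to 1 place.

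MYH1, the type IIx chain, spanned the wider fold range of the members, 22.7-fold over the 6 animals against 5.93-fold for MYH2, while in CPM the SD over all 6 was larger for MYH2 (11593 against 8960). Its level was 9543 CPM (counts per 1000000 gene counts) in Bull 20, 1057 CPM in Bull 22 and 1679 CPM in Bull 23. Steer 439 had 7755 CPM, Steer 456 had 17149 CPM and Steer 458 had 24004 CPM. Bulls 22 and 23 were far below the other 4 animals, and Bull 20 lay above Steer 439, so the groups overlapped. The largest gap between neighbours in this order was 4.62-fold, from Bull 23 to Steer 439, and the smallest was 1.23-fold, from Steer 439 to Bull 20. The mean was 4093 ± 4730 CPM in bulls and 16303 ± 8158 CPM in steers (SD, n = 3 each), a ratio of 3.98 between the means of steers and bulls. The SD among bulls exceeded their mean.

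MYH2, the type IIa chain, was high where MYH1 was low. Its level was 16600 CPM in Bull 20, 41119 CPM in Bull 22 and 21965 CPM in Bull 23. Steer 439 had 18135 CPM, Steer 456 had 13946 CPM and Steer 458 had 6936 CPM. Bull 22 stood highest and Steer 458 lowest, with the other 4 animals between them in steps of at most 1.21-fold, and Steer 439 lay above Bull 20, so the groups overlapped here too. The mean was 26562 ± 12890 CPM in bulls and 13006 ± 5658 CPM in steers (SD, n = 3 each), a ratio of 2.04 between the means of bulls and steers. Counting error was small beside these differences. The 95% Wilson interval of a member's share of the gene counts reached ± 0.00888 percentage points at its widest, and it covers counting error only.

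**Figure D1:**
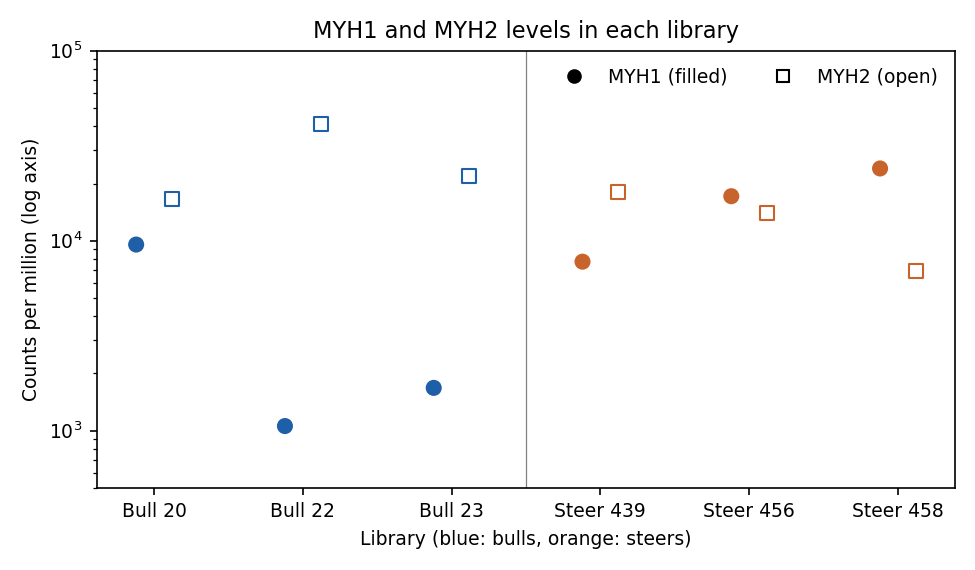
CPM of MYH1 (filled circles) and MYH2 (open squares) on a log axis, for each of the 3 bulls (blue) and 3 steers (orange). MYH1 lies below MYH2 in all 3 bulls and in Steer 439 and above it in Steers 456 and 458.

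The fit across all genes gave a log2 fold change, coded bull minus steer, of -2.07 ± 0.86 for MYH1 and 0.97 ± 0.47 for MYH2 (SE, edgeR quasi-likelihood fit of all 6 libraries). These values describe the contrast with which the genes were chosen and are given without a test. Of the 2 members, 0 were among the genes called at an adjusted p under 0.05, where 4.10% of the 12769 tested genes were called, and 0 of the 2 had groups that did not overlap, which held for 29.6% of the tested genes. Neither was called in any of the 14 alternative fits, and both kept their direction in all 14. Some of these fits called few genes at all. They were 10 of 13010 tested genes without Bull 20, 7 of 13185 without Bull 22 and 7 of 13169 without Bull 23. Without Steer 458 it was 77 of 13035, while DESeq2 called the most, 1433 of 14134. Where few genes were called, the lack of a call says little. The fits also share animals, so a kept direction is no separate support. Bull 20 weighed most on MYH1. Without this animal the log2 fold change of MYH1 was -3.73 ± 0.67 (SE), against -1.62 to -2.44 without any other single animal. Bull 22 weighed most on MYH2, whose log2 fold change was 0.48 ± 0.44 (SE) without this animal and 0.68 to 1.25 without any of the others. In bulk tissue, fewer fibres of a type and less RNA per fibre cannot be told apart.

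The ratio of the MYH1 count to the MYH2 count within a library does not depend on depth or on scaling between libraries. The ratio was 0.575 in Bull 20, 0.0257 in Bull 22 and 0.0765 in Bull 23. Steer 439 had a ratio of 0.428, Steer 456 one of 1.23 and Steer 458 one of 3.46. MYH1 counts thus exceeded MYH2 counts in 2 of the 6 animals, both of them steers, while Bull 22 had 38.9 MYH2 reads for each MYH1 read. Put as a share of the reads of the pair, MYH1 made up 36.5%, 2.51% and 7.10% in Bulls 20, 22 and 23 and 30.0%, 55.2% and 77.6% in Steers 439, 456 and 458. The ratio compares reads and not reads per transcript length, since neither transcript length was in the sources used here. A length correction would multiply the ratio by the same factor in every library and would leave the comparison of animals as it is.

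On the log2 scale the ratio averaged -3.26 ± 2.27 in bulls and 0.29 ± 1.51 in steers (SD, n = 3 each). The difference of 3.55 log2 units between steers and bulls corresponds to 11.7-fold. The bulls differed among themselves by more than that and the steers by less. Among the bulls, all of equal age, the ratio varied 22.4-fold, between Bull 22 and Bull 20, and among the steers 8.09-fold, between Steer 439 and Steer 458. Bull 20 had a higher ratio than Steer 439, so the groups overlapped. As bull minus steer, the difference was -3.55 log2 units with all animals, -4.78 without Bull 20, and between -2.54 and -4.31 with any other animal left out. The ratio was named in the choice of the genes, so this difference is a description as well. Among the steers, the ratio was highest in the youngest animal, Steer 458 at 930 days, and lowest in the oldest, Steer 439 at 996 days. The part of age in this order was not tested.

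**Figure D2:**
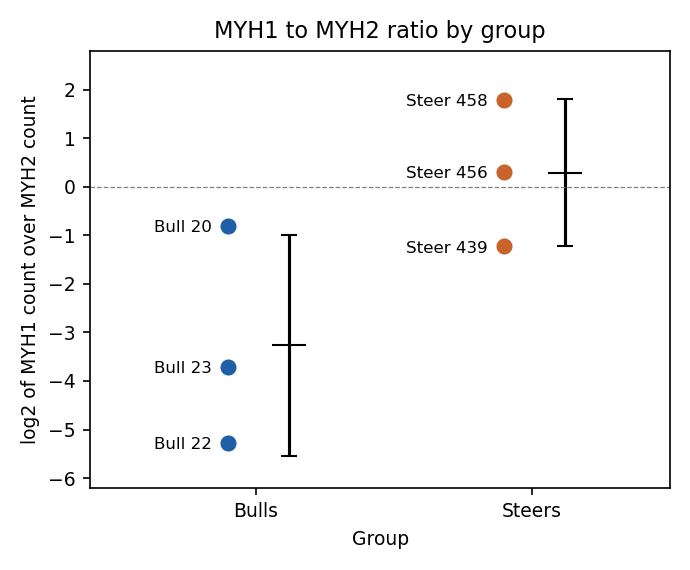
Log2 of the MYH1 count over the MYH2 count in each library by group, with the mean and SD (n = 3) of each group in black beside the points. The dashed line marks equal counts, and Bull 20 at -0.80 lies above Steer 439 at -1.23.

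Over the 6 animals the order of MYH2 was the exact reverse of the order of MYH1. From Bull 22 through Bull 23, Steer 439, Bull 20 and Steer 456 to Steer 458, the level of MYH1 went up and that of MYH2 went down at each step. The reversal therefore held among the 3 bulls and among the 3 steers as well as across the groups. The Pearson correlation of log2 CPM was -0.90 and Spearman's rho was -1 (n = 6 libraries), and without Bulls 22 and 23, the animals farthest from the median of MYH1, Pearson's r was -0.97 (n = 4). These are descriptions with no p, since the ratio of the same genes was named in their choice and both levels in a library share its total. Of the 12768 other tested genes, 26 (0.204%) had the exact reverse order of MYH1 and 15 (0.117%) had the same order. Among the 109 other genes with a mean of at least 1000 CPM, MYH2 was the only one with the reverse order. None of these 109 had a more negative Pearson correlation with MYH1. The bound of 1000 CPM was chosen after seeing the data and the pair was chosen with its ratio named, so this place of MYH2 is no support for an opposite course.

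**Figure D3:**
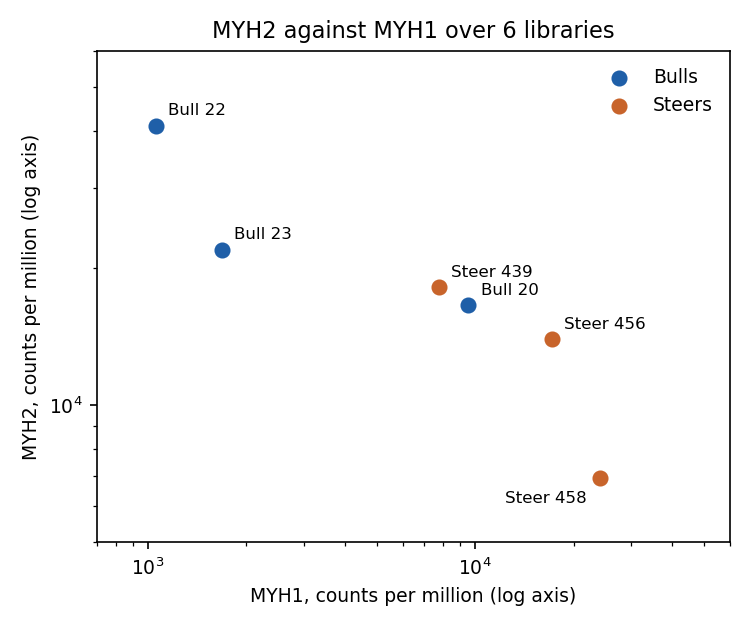
MYH2 against MYH1 in CPM, both on log axes, with 1 point per library (bulls blue, steers orange). From Bull 22 at the upper left to Steer 458 at the lower right, each animal with more MYH1 has less MYH2, and Steer 439 and Bull 20 lie side by side in the middle.

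As a fold between the lowest and the highest animal, the summed share of both chains varied less than either chain. The fold of a sum cannot exceed the wider fold of its parts, and opposite orders tend to narrow it, so this is a description only. MYH1 and MYH2 together took 2.61%, 4.22% and 2.36% of the gene counts in Bulls 20, 22 and 23, and 2.59%, 3.11% and 3.09% in Steers 439, 456 and 458. The mean was 3.07% ± 1.01 in bulls and 2.93% ± 0.296 in steers (SD, n = 3 each). Bull 22 stood above all others, and the other 5 animals lay between 2.36% and 3.11%. From the lowest to the highest of the 6 animals the sum spanned 1.78-fold, while MYH1 spanned 22.7-fold and MYH2 5.93-fold. In percentage points this did not hold among the bulls, where the SD was 1.01 for the sum, 0.473 for MYH1 and 1.29 for MYH2. The difference of the group means, 0.135 percentage points higher in bulls, was smaller than the SD of either group. Its direction turned with single animals. As bull minus steer, the difference was -0.441 percentage points without Bull 22 and -0.0363 without Steer 439, and between 0.216 and 0.485 without any of the other 4 animals.

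Within a group, the excess of MYH1 and the deficit of MYH2 of one animal against another were nearly equal in 1 pair and far from equal in others. Steer 458 had 6855 CPM more MYH1 than Steer 456 and 7009 CPM less MYH2, and the sum differed by 0.0154 percentage points. Bull 20 had 7863 CPM more MYH1 than Bull 23 and 5365 CPM less MYH2. Bull 23 had 622 CPM more MYH1 than Bull 22 but 19154 CPM less MYH2. In that last pair an equally lower MYH1 level in Bull 22 was not possible, since Bull 23 had only 1679 CPM of MYH1.

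Both genes were among the most abundant transcripts of this muscle. By count, MYH2 ranked 8th, 2nd and 5th of all genes in Bulls 20, 22 and 23 and 5th, 8th and 26th in Steers 439, 456 and 458. MYH1 ranked 15th, 101st and 70th in these bulls and 19th, 4th and 4th in these steers. Ranks by count compare reads and not transcripts, since genes differ in length. High levels of fast heavy chains are known of skeletal muscle, but MYH1 ranked lower in Bulls 22 and 23. The pairing of the IDs with the names was itself not checked, so these ranks are no separate check of the tissue label. Markers of muscle and of other cell types could not be matched to IDs.

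Most genes varied less among the bulls than among the steers, and MYH1 did the opposite. The SD of log2 CPM of MYH1 was 1.71 among the bulls and 0.90 among the steers, against medians over all tested genes of 0.18 and 0.39. In the bulls, 45 of the 12769 tested genes had a larger SD than MYH1, and 0 of the 110 genes with a mean of at least 1000 CPM did. In the steers, 10.8% of the tested genes had a larger SD than MYH1. MYH2 had an SD of 0.67 among bulls and 0.62 among steers, and 4.83% and 24.3% of the tested genes had a larger one. The SD was larger in bulls than in steers for 19.6% of all tested genes, and both members were among them. The SD in bulls over that in steers was 1.91 for MYH1 and 1.07 for MYH2. A larger value than that of MYH1 was found in 851 of the 12769 tested genes and in 10 of the 110 abundant genes. For MYH2 these counts were 2271 and 21. From the lowest to the highest of all 6 animals, 2 of the 110 abundant genes spanned a wider range than MYH1, and 14 spanned a wider range than MYH2.

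**Figure D4:**
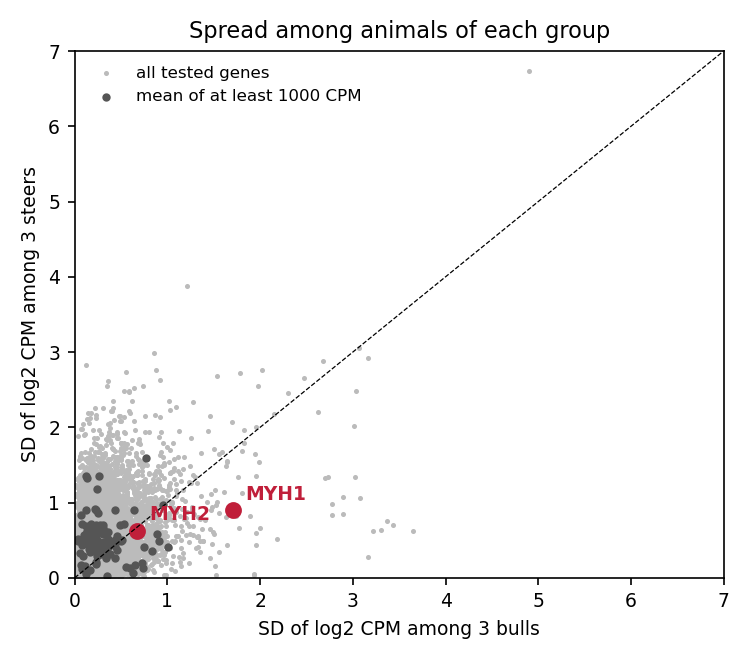
SD of log2 CPM among 3 bulls (x axis) and among 3 steers (y axis) for each of the 12769 tested genes (grey), with the 110 genes of at least 1000 CPM on average in dark grey and the members in red. On the dashed line both SDs are equal, most genes lie above it, and MYH1 at 1.71 among bulls lies farther right than every other abundant gene.

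The summary line for alignments to more than one place bears on how much of each chain could be counted. Its share was 26.3%, 28.2% and 24.5% of all counted lines in Bulls 20, 22 and 23, and 16.9%, 27.4% and 27.3% in Steers 439, 456 and 458. This line may hold a read once per alignment, so its share can exceed the share of reads. Steer 439 stood apart with the lowest share, and it also had the lowest MYH1 level and the highest MYH2 level of the steers. Steers 456 and 458, at 27.4% and 27.3%, differed 2.81-fold in the ratio of MYH1 to MYH2. Bulls 20 and 22, at 26.3% and 28.2%, differed 22.4-fold in this ratio. A share over all counted lines does not show how many myosin reads it holds. How many of the reads aligned to more than one place came from myosin genes, and their part in the ratio, was not tested.

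Over the 6 libraries, some other genes correlated closely with a member. In all, 6676 genes had a mean of at least 10 CPM. Of these, 34 (0.509%) correlated with MYH1 at r above 0.9 and 19 (0.285%) at r below -0.9. For MYH2 these counts were 29 (0.434%) and 43 (0.644%). With 6 libraries such values arise by chance among many genes, and whether these counts exceed that level was not tested. The gene closest to MYH1 was ENSBTAG00000013108 (r = 0.98), with 52.0, 22.7 and 27.4 CPM in Bulls 20, 22 and 23 and 38.7, 71.6 and 61.0 CPM in Steers 439, 456 and 458. It was low in Bulls 22 and 23 as MYH1 was, but its highest level was in Steer 456 and not in Steer 458. The gene closest to MYH2 was ENSBTAG00000011024 (r = 0.98), which varied far less, between 11.9 CPM in Steer 458 and 20.5 CPM in Bull 22. In the opposite direction, ENSBTAG00000022242 went against MYH1 (r = -0.98), between 20.5 CPM in Steer 458 and 31.4 CPM in Bull 23. ENSBTAG00000018332 went against MYH2 (r = -0.98), from 34.7 CPM in Bull 22 to 109 CPM in Steer 458. These correlations of log2 CPM run over 6 libraries that share their scaling, were picked as the extremes of all candidates and are given without a p. No table used here gives names for these 4 IDs.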

How the data were processed

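Poly(A) RNA-seq libraries of 3 bulls and 3 steers, 1 per animal, were used. Each deposited file lists raw read counts by Ensembl gene ID. FastQC, TopHat2 2.0.2, HTSeq 0.5.3p3 and the build UMD3.1 are named per the submitters' processing notes. The annotation release, strandedness and handling of overlaps are not stated there, so reads of overlapping or antisense genes may be mixed. The 5 summary lines per file name no gene and were left out of library sizes; they held 29.3% to 39.9% of the counted lines.

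Levels are CPM, counts per 1000000 gene counts. Correlations and the SDs compared with those of all tested genes were taken on log2 CPM (TMM scaling, prior count 2). The SDs given with group means of CPM, of shares and of the log2 ratio were taken on those values without TMM scaling. All genes passing filterByExpr entered 1 edgeR 4.0.16 quasi-likelihood fit (R 4.3.3) with group as its only term and Benjamini-Hochberg adjustment at 0.05. The standard error of a log2 fold change is its size over the root of the F statistic. The fit was tested on simulated data in which all genes and both groups had the same spread setting. In the real data the spread differed between genes and between groups, so the simulation does not check the fit for the members. Alternatives were other scalings and filters, DESeq2 1.42.0, limma 3.58.1 (voom) and leaving out each animal.

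The members, lists and tests were chosen with earlier results of these data known, so no p is given for a member. The genes printed are the members and, since no symbols matched, the 2 highest and 2 lowest correlations with either member among genes of at least 10 CPM. The bound of 1000 CPM for abundant genes was chosen after seeing the data. Lists of fibre-type, thick-filament and cell-type marker genes could not be matched to IDs and were not tested.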

Additional observations from a re-analysis of the deposited data

Results flagged for a closer look

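The files also hold lines that no comparison of the members used. Of the counted lines per library, a median of 11.3% (10.2% to 12.2%) were reads that met no annotated gene. Reads over more than 1 gene made up a median of 0.438% (0.399% to 0.590%). Shares of this size hold far more reads than the limit of 3 set by a count of 0 in any library of this depth, so this is no check. Whether any of these reads came from MYH1 or MYH2 was not tested. With 3 animals per group, no animal was tested as an outlier.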

How the results depend on the processing

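Over the other scalings, filters and tools, the log2 fold change was -1.95 to -2.62 for MYH1 and 0.93 to 1.08 for MYH2. With each animal left out it was -1.62 to -3.73 and 0.48 to 1.25, and the value of -3.73 came without Bull 20. The log2 ratio of MYH1 to MYH2, bull minus steer, was -3.55, -2.98 from group sums, and -2.54 to -4.78 with an animal left out. The number of called genes was 524, 1433 with DESeq2 and 7 to 1019 with an animal left out (10, 7 and 7 without Bulls 20, 22 and 23, 77 without Steer 458, 995 without Steer 439 and 1019 without Steer 456), and the cause was not tested. The members were in none of these sets. No paired analysis was possible because bulls and steers share no animal number. The gene lists and the ratio per protein length were not run, since neither IDs with symbols nor protein lengths were in the tables used. Each member had at least 20323 reads per library, so counting error was small beside the differences between animals.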
